A study of Rattus norvegicus with 10 samples.

Results

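The Cyp2b subfamily of cytochrome P450 genes was followed in rat liver after a burn injury. The members were all probe sets whose only gene symbol in the probe table of the array begins with Cyp2b and a digit, which gave 7 of 8799 probe sets for 4 genes, where 4737 genes have such probe sets in all. They were chosen by their changes against sham, with these values known. Cyp2b2 had 2 of them, Cyp2b3 had 3, and Cyp2b15 and Cyp2b12 had 1 each. Another 4 probe sets list Cyp2b2 together with Cyp2b1 or Cyp2b15. They are not members and are described only beside Cyp2b2.

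Total liver RNA was measured on 10 expression arrays in 5 groups of 2: livers collected 1, 4, 8 and 24 h after a burn, and livers of sham rats, labelled 0 h. The same 2 sham arrays serve every burn time, and no sham array is labelled with a later time. A change with the burn therefore cannot be told apart from a change with elapsed time or time of day. No genetic change or drug is named for any group, and strain, sex, age and burn extent are not stated. Whether 2 arrays of 1 group stand for 2 rats is not stated either, so p-values measure the spread between arrays, which may be technical.

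Enzymes of the CYP2B subfamily are monooxygenases of the endoplasmic reticulum of hepatocytes that oxidise drugs, steroids and other foreign compounds. The rat genes Cyp2b1 and Cyp2b2, whose sequences are nearly the same, are the classical phenobarbital-induced P450 genes of liver, and the nuclear receptors CAR and PXR carry that induction. Cyp2b3 is known in rat liver as a constitutive form that phenobarbital does not induce, and Cyp2b12 is known from sebaceous glands. The enzymes need heme, and they take electrons from the reductase Por.

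In the RefSeq annotation of GRCr8 the Cyp2b genes form a cluster on chromosome 1. Cyp2b2 lies next to Cyp2b3, with 1 gene between Cyp2b1 and Cyp2b2. Cyp2b12, Cyp2b14 and Cyp2b15 are neighbours at the other end. The 200 bases before the first annotated base of a gene are shown for Cyp2b2, Cyp2b3 and Cyp2b15, the genes whose time courses are set side by side below, all on the plus strand and 5′ to 3′. They are the RefSeq sequence of GRCr8 at chr1:90722043-90722242, chr1:90780268-90780467 and chr1:91221665-91221864. Capitals mark matches to TTGCNNAA, a form of the site bound by the liver factors C/EBP alpha and beta.
Cyp2b2: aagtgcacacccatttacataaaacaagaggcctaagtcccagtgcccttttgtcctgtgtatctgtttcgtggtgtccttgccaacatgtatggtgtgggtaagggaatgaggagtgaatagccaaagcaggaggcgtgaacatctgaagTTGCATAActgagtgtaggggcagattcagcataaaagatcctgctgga
Cyp2b3: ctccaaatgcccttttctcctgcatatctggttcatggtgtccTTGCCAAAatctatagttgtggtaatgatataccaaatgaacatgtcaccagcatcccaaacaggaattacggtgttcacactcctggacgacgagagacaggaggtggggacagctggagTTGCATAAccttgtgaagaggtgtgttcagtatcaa
Cyp2b15: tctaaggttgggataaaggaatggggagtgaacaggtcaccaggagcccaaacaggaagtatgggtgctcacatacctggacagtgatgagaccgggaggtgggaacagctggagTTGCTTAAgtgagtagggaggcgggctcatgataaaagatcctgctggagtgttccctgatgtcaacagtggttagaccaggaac

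Cyp2b2 and Cyp2b3 both hold TTGCATAA, at 49 to 42 bases before the start in Cyp2b2 and 36 to 29 in Cyp2b3. Cyp2b3 has a further match 157 to 150 bases before its start. Cyp2b15 holds TTGCTTAA at 85 to 78 bases. The stretch ataaaagatcctgctgga follows the match in both Cyp2b2 and Cyp2b15. It ends the window of Cyp2b2, and further bases follow it in that of Cyp2b15. Distances from the annotated starts therefore do not compare the places of these 2 matches. The motif was searched on both strands in windows of the same length, and 7.5% of 20890 rat promoters hold it. TATAAA (11.9% of promoters) and TTCNNNGAA (6.44%), searched on both strands as well, had no match in these windows. Over the aligned positions the window of Cyp2b2 was 96.5% identical to that of Cyp2b1 (193 of 200 positions). It was 77.7% identical to that of Cyp2b15 (87 of 112) and 74.8% to that of Cyp2b3 (113 of 151). The aligned lengths differ, so these percentages do not rank Cyp2b15 and Cyp2b3 by likeness to Cyp2b2. A match is a description of these letters and not evidence of binding.

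Values are the deposited intensities on a linear scale. Changes are differences of log2 values after every intensity under 36.4 was raised to 36.4, a floor set at the median of the 25th percentiles of the arrays. The floor serves only the fit and the folds. The intensities quoted are as deposited. Each change is given with the standard error (SE) of a limma model of all 5 groups. Because of how the Cyp2b genes were chosen, their values are a description and carry no test. Genes of other lists were tested in the same model over 5285 probe sets brighter than the array median on 2 or more of the 10 arrays, and "rose" and "fell" are kept for those with an adjusted p under 0.05. Of the 7 Cyp2b probe sets, 6 were in that set. The 7th, X63545_at of Cyp2b12, was not above the median of any array.

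Cyp2b2 was lower than in sham liver at 1 h and above it from 4 h on, with its highest level at 24 h. On K01721mRNA_s_at the intensities were 2899.2 and 3529.7 on the sham arrays, 1494.1 and 1346.2 at 1 h, 12926.0 and 13929.2 at 4 h, 10571.5 and 10103.2 at 8 h, and 30009.9 and 28172.1 at 24 h. No 2 groups overlapped. From low to high the order was 1 h, sham, 8 h, 4 h and 24 h.

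Against sham, K01721mRNA_s_at was 2.26-fold lower at 1 h (log2 change -1.17, SE 0.16, n = 2 and 2). It was 4.2-fold higher at 4 h (log2 change 2.07), 3.23-fold higher at 8 h (1.69) and 9.09-fold higher at 24 h (3.18), with the same SE. The increase at 24 h was number 11 in size among the 5285 probe sets, after M11251cds_f_at (5) and L00320cds_f_at (8), which list Cyp2b2 with Cyp2b1. Set against the preceding time, the level was 9.46-fold higher at 4 h than at 1 h (log2 difference 3.24, SE 0.16). The step to 8 h was small, 1.3-fold lower than at 4 h, and the level at 24 h was 2.81-fold higher than at 8 h. In whole liver, a change in RNA per cell cannot be told apart from a change in the number of cells that carry it.

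The other Cyp2b2 probe set, J00728cds_f_at, had the same course with smaller increases. Its intensities were 3992.1 and 3363.2 on the sham arrays, 1601.9 and 1444.9 at 1 h, 6719.6 and 7111.3 at 4 h, 6709.1 and 7124.0 at 8 h, and 12273.0 and 12889.5 at 24 h. The 4 h and 8 h arrays overlapped, and all other neighbours in the order were separate. It was 2.41-fold lower at 1 h (log2 change -1.27, SE 0.16), 1.89-fold higher at 4 h and at 8 h, and 3.43-fold higher at 24 h (log2 change 1.78). In the naming of the array maker _f and _s mark designs with probes shared by similar transcripts, so RNA of near-identical Cyp2b genes can add to both probe sets.

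**Figure D1:**
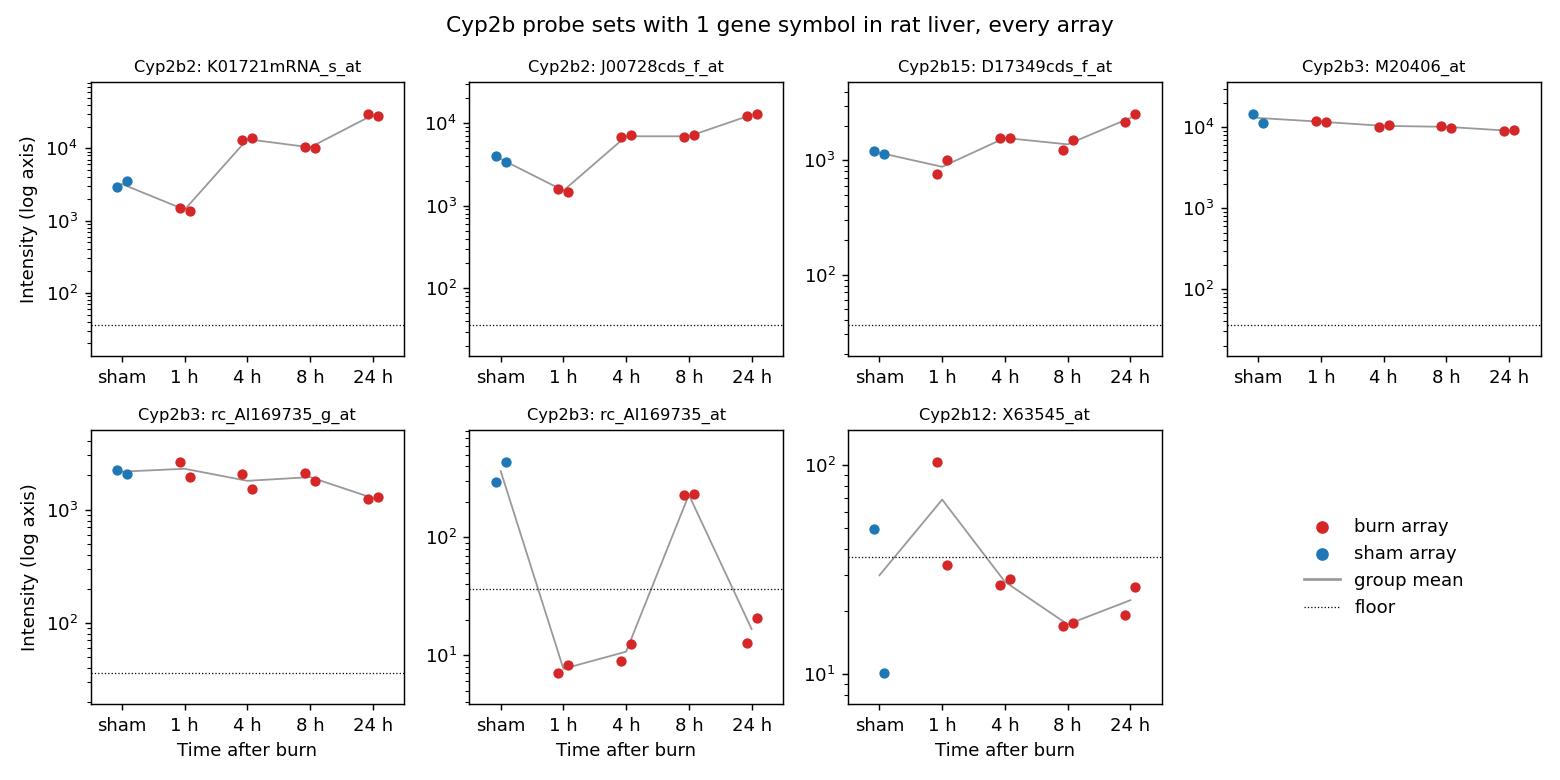
Intensity of the 7 Cyp2b probe sets on every array (log axis), with sham and the 4 burn times from left to right; points are arrays, the grey line joins group means and the dotted line is the floor of 36.4. K01721mRNA_s_at of Cyp2b2 dips at 1 h and reaches 30009.9 and 28172.1 at 24 h, while rc_AI169735_at of Cyp2b3 lies under the floor at 1, 4 and 24 h.

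The 4 probe sets with several symbols are shown because they include Cyp2b2. On M11251cds_f_at, listed for Cyp2b2 and Cyp2b1, intensities were 481.3 and 725.5 on the sham arrays, 356.0 and 525.1 at 1 h, 3071.5 and 4193.8 at 4 h, 2246.7 and 2728.2 at 8 h, and 8092.6 and 7755.1 at 24 h. The 1 h and sham arrays overlapped, and the later arrays all lay above them. Its change at 24 h was 13.4-fold (log2 change 3.74, SE 0.29), number 5 in size among the 5285 probe sets. L00320cds_f_at and K00996mRNA_s_at, listed for the same pair of genes, were 11-fold and 6.89-fold higher at 24 h and 2.65-fold and 1.63-fold lower at 1 h. M13234cds_f_at, listed for Cyp2b15 and Cyp2b2, was 3.53-fold higher at 24 h and 3.1-fold lower at 1 h.

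For all 4 the 24 h arrays were the highest and the 1 h arrays the lowest in mean. On M13234cds_f_at the 8 h arrays (6789.2 and 6411.7) lay above the 4 h arrays (4742.8 and 5097.6), the opposite of K01721mRNA_s_at. Over the 10 arrays, the log2 values of these probe sets correlated with K01721mRNA_s_at at r = 0.957 to 0.997. The probe sets may share target sequence and the arrays form 5 pairs, so these figures describe likeness only.

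**Figure D2:**
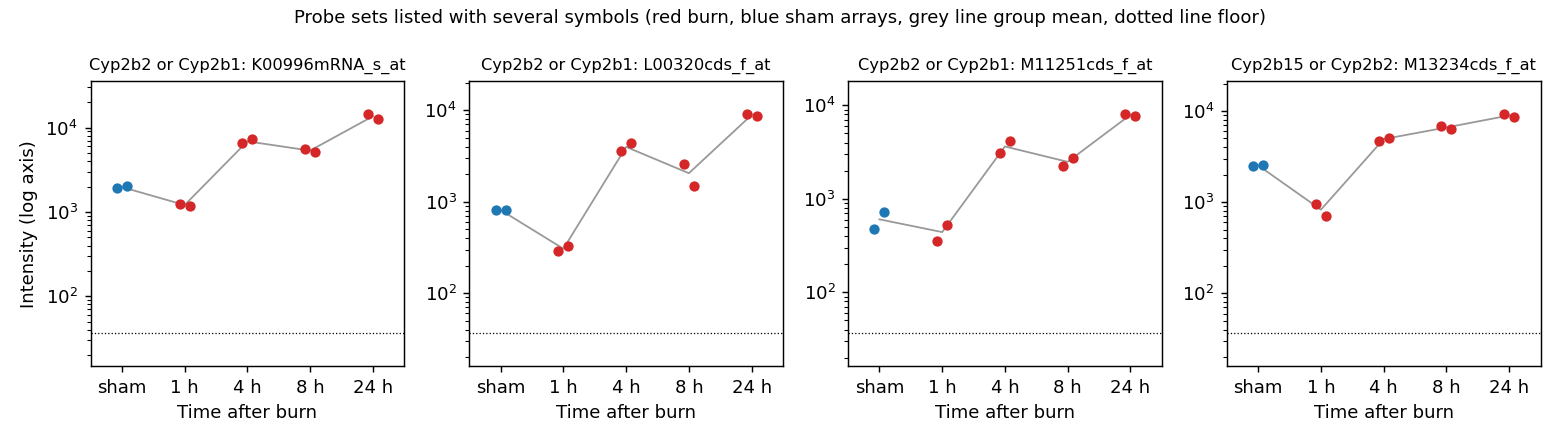
Intensity of the 4 probe sets listed with several symbols, on every array (log axis), with sham and the burn times from left to right; points are arrays and the grey line joins group means. All 4 have their highest arrays at 24 h, and on M11251cds_f_at the 1 h arrays overlap the sham arrays.

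Cyp2b15, on D17349cds_f_at, followed the same order as Cyp2b2 with smaller changes. Its intensities were 1204.8 and 1126.8 on the sham arrays, 752.3 and 1004.9 at 1 h, 1580.5 and 1566.4 at 4 h, 1244.4 and 1518.9 at 8 h, and 2161.8 and 2552.5 at 24 h. Groups did not overlap, though the 8 h array of 1244.4 lay just above the sham array of 1204.8. Against sham the log2 changes were -0.42, 0.43, 0.24 and 1.01 at 1, 4, 8 and 24 h (SE 0.2 each), the last of them 2.02-fold higher. The values of D17349cds_f_at and J00728cds_f_at correlated at r = 0.926 over the 10 arrays. This is again an _f design, and how much of its signal is Cyp2b2 RNA was not tested.

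Cyp2b3 did not follow Cyp2b2. On M20406_at it had 14672.6 and 11494.6 on the sham arrays, 11868.9 and 11613.6 at 1 h, 10049.0 and 10826.7 at 4 h, 10434.7 and 9894.4 at 8 h, and 8942.1 and 9236.7 at 24 h. The 1 h arrays lay within the range of the sham arrays, and the later arrays all lay below both. The gap between the 2 sham arrays was wider than the gap between either 24 h array and the lower 8 h array.

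The changes of M20406_at against sham were -0.15, -0.32, -0.35 and -0.51 on the log2 scale at 1, 4, 8 and 24 h (SE 0.17 each), and the level at 24 h was 1.43-fold lower than in sham. The 4 h and 8 h arrays overlapped. Without the first sham array the change at 1 h was 0.03 and that at 24 h was -0.34, and without the second they were -0.32 and -0.69.

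The EST AI169735 is represented by 2 probe sets, both named Cyp2b3, and they disagreed. On rc_AI169735_g_at the intensities were 2243.9 and 2072.2 on the sham arrays, 2626.9 and 1949.8 at 1 h, 2078.5 and 1503.2 at 4 h, 2089.4 and 1773.9 at 8 h, and 1241.9 and 1279.8 at 24 h. The 24 h arrays lay below all others, and the 1, 4 and 8 h arrays overlapped the sham arrays. The level at 24 h was 1.71-fold lower than in sham (log2 change -0.77, SE 0.23). On M20406_at the change at 24 h had the same direction and was -0.51 (SE 0.17).

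On rc_AI169735_at the intensities were 293.5 and 435.5 on the sham arrays, 7.1 and 8.2 at 1 h, 8.9 and 12.5 at 4 h, 227.8 and 231.0 at 8 h, and 12.6 and 20.7 at 24 h. The sham and 8 h arrays carried signal, and the 6 arrays of 1, 4 and 24 h were all under the floor. At these 3 times the level was at least 9.82-fold lower than in sham, and at 8 h it was 1.56-fold lower (log2 change -0.64, SE 0.2). The other probe set of the same EST was 1.05-fold higher at 1 h and 1.22-fold lower at 4 h. The size of the change on rc_AI169735_at depends on the floor, and the deposited values under it have no dependable order. Which of the 3 Cyp2b3 probe sets measures the Cyp2b3 transcript was not tested. Probe sequences were not used here.

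Cyp2b12, on X63545_at, was under the floor on 8 of 10 arrays. Only the first sham array (49.4) and the first 1 h array (103.8) lay above it, so no fold is given.

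**Figure D3:**
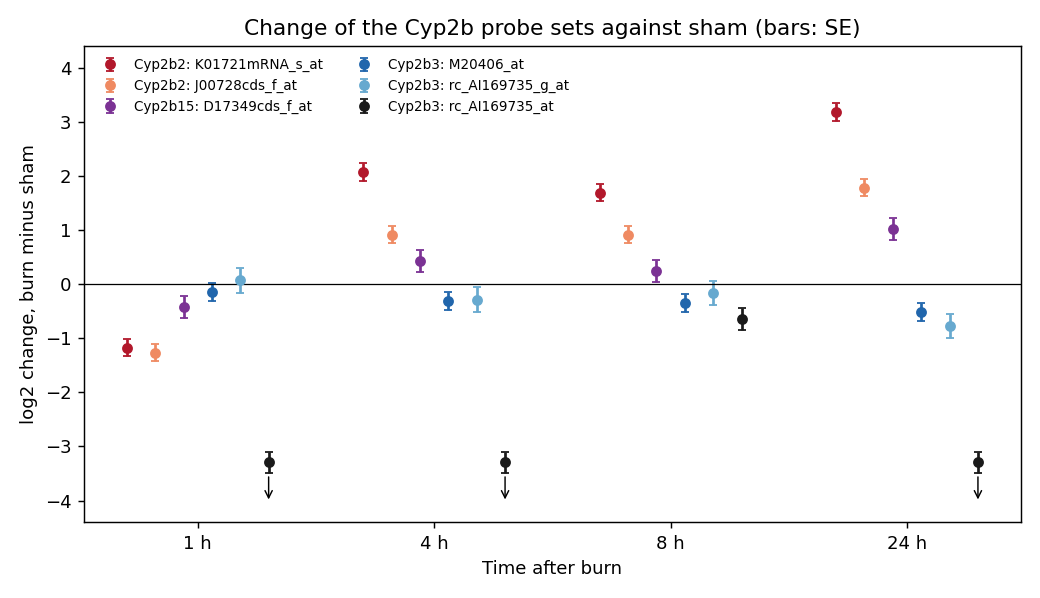
Change of 6 Cyp2b probe sets against sham at each burn time (log2 scale; points are burn minus sham, bars are the SE, arrows mark changes that are bounds because both burn arrays lay under the floor). Both Cyp2b2 probe sets and Cyp2b15 cross zero between 1 h and 4 h, 2 Cyp2b3 probe sets stay between -0.77 and 0.07, and rc_AI169735_at is at its bound at 3 of 4 times.

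Of the 6 probe sets in the tested set, 0 had both 1 h arrays above both sham arrays and 4 had both below, where 21.7% and 21% of all tested probe sets did. At 4 h 3 lay above and 2 below (20.1% and 26% of all), at 8 h 3 above and 2 below (18.6% and 29.7%), and at 24 h 3 above and 3 below (24.6% and 29.4%). The 3 above at 4, 8 and 24 h were those of Cyp2b2 and Cyp2b15, and those below were Cyp2b3. Since these contrasts led to the choice of the genes, nothing is read from the counts. The middle 90% of all tested probe sets at 24 h lay between -1.24 and 1.09 on the log2 scale.

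**Figure D4:**
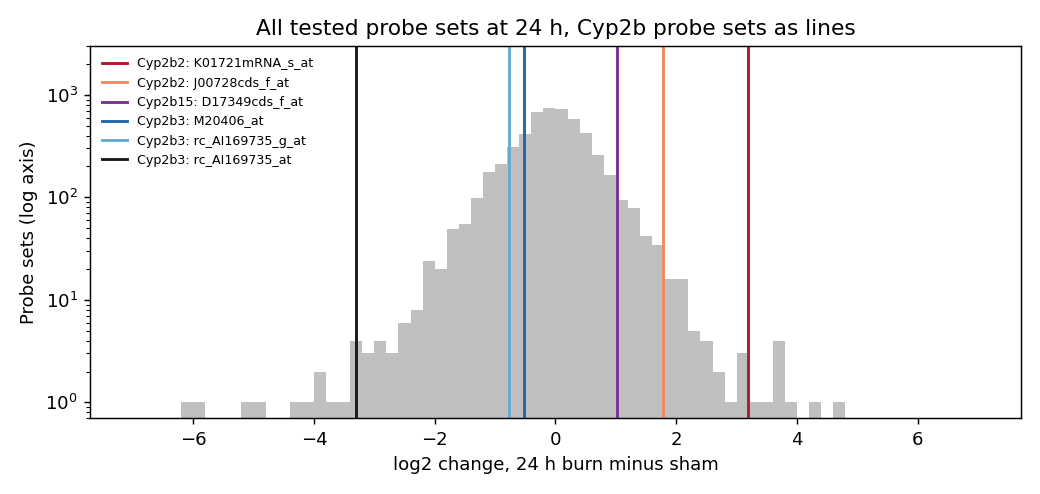
Number of tested probe sets (log axis) by their log2 change at 24 h, burn minus sham, with the 6 Cyp2b probe sets drawn as lines. K01721mRNA_s_at at 3.18 and J00728cds_f_at at 1.78 lie above the middle 90% of all probe sets, and rc_AI169735_at lies below it at its bound.

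The liver identity of the arrays was clear, since 9 of 10 hepatocyte markers were on the array and none was under the floor on both arrays of any group. RNA of pancreatic enzymes was also present and moved with time. The summed intensity of 13 acinar genes was 9180.9 and 9856.8 on the sham arrays, 43291.6 and 45406.3 at 1 h, 2270.9 and 2110.0 at 4 h, 13279.0 and 12750.5 at 8 h, and 2013.5 and 2406.6 at 24 h. It was thus highest when Cyp2b2 was lowest. At 4 and 24 h, when Cyp2b2 was above sham, the acinar sum was below sham, and 4 and 5 of the 13 genes were under the floor on both arrays. At 8 h both were above sham. The hepatocyte sum was 330286.8 and 384114.3 at 1 h against 327809.2 and 380337.4 in sham. It was 266877.3 and 335373.7 at 4 h, 396701.8 and 407960.8 at 8 h, and 338400.0 and 361358.3 at 24 h. Both 8 h arrays thus lay above both sham arrays. The sum of 3 erythroid genes, which mark red blood cells, was 32893.8 and 33649.0 on the sham arrays, 39855.4 and 44578.4 at 1 h, 26446.4 and 29182.7 at 4 h, 27933.9 and 29488.3 at 8 h, and 27388.7 and 27210.2 at 24 h. It was thus above sham at 1 h and below it at the other times. The sum of 4 Kupffer cell and macrophage genes was 2918.3 and 2963.3 at 24 h against 4289.2 and 4339.2 in sham. It was 4180.3 and 4551.3 at 1 h, 3330.9 and 3820.9 at 4 h, and 4660.6 and 4671.8 at 8 h. The sum of 2 neutrophil genes was 53.6 and 56.0 in sham and 71.6 and 74.0 at 1 h. It was 130.2 and 155.7 at 4 h, 140.4 and 174.3 at 8 h, and 137.0 and 80.9 at 24 h. These sums are near the floor, and 1 of the 2 genes was under it on both sham arrays. The part of these cell types in the Cyp2b2 course was not tested.

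Lists of 61 genes around Cyp2b were examined beside it: 18 regulators, 29 genes known to share induction by CAR or PXR, and 15 of electron transfer and heme supply, with Alas1 on both of the last lists. On the array 44 were found and 43 tested, each by its brightest probe set. The receptor genes Nr1i3 (CAR) and Nr1i2 (PXR) were not analysed, since no probe set with 1 symbol was found for either. At 1 h 0 of the 43 genes rose and 3 fell, where 0.891% of all 3143 tested genes rose and 0.414% fell. At 4 h 4 rose and 2 fell (1.94% and 1.88% of all genes). At 8 h 1 rose and 2 fell (1.37% and 1.65%), and at 24 h 3 rose and 6 fell (3.4% and 5.98%). The shares that passed in either direction were 6.98%, 14%, 6.98% and 20.9% of the 43 genes, beside 1.3%, 3.82%, 3.02% and 9.39% of all genes. The lists were chosen with earlier results of these data known, so nothing is read from these shares or those of each list below. The median changes of the lists together were -0.15, -0.05, -0.11 and -0.21 on the log2 scale, and those of all tested probe sets were 0.01, -0.04, -0.1 and -0.04.

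Por, the reductase that passes electrons to P450 enzymes, was higher at the 2 times at which K01721mRNA_s_at had its highest levels. On J00728cds_f_at the 4 h and 8 h arrays overlapped, and on M13234cds_f_at the 8 h arrays lay above the 4 h arrays. Por had 3656.0 and 4137.3 on the 4 h arrays and 5229.0 and 4388.3 on the 24 h arrays, against 1818.6 and 1765.0 on the sham arrays. It rose 2.17-fold at 4 h (log2 change 1.12, SE 0.23, limma adjusted p = 0.0448) and 2.67-fold at 24 h (log2 change 1.42, adjusted p = 0.012). At 8 h it had a log2 change of 0.05. Its call at 4 h ended when any array but those of 1 h was left out (adjusted p up to 0.189), and that at 24 h without either sham array or the first 24 h array (up to 0.0692). A second Por probe set, E01524cds_s_at, rose at the same times (2.16-fold and 2.02-fold), and a further one, M10068mRNA_s_at, rose at 24 h (1.82-fold) and did not pass at 4 h.

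Alas1, the first and rate-limiting enzyme of heme synthesis, rose 4.43-fold at 4 h on J03190_g_at, with 5256.7 and 5105.7 on the 4 h arrays against 1059.2 and 1291.5 on the sham arrays (log2 change 2.15, SE 0.23, limma adjusted p = 0.00282). Its log2 changes were 1.31, 1.06 and 0.23 at 1, 8 and 24 h (adjusted p = 0.051, 0.0593 and 0.608), and its other probe set, J03190_at, passed at 8 h as well (2.87-fold, adjusted p = 0.0435). Hmox1, which breaks heme down, rose 10.9-fold at 4 h, with 4919.4 and 5303.9 against 401.7 and 550.7 in sham (log2 change 3.44, SE 0.24, adjusted p = 0.000461). It rose 2.6-fold at 8 h (adjusted p = 0.0342) and 6.04-fold at 24 h (adjusted p = 0.00124). The 8 h call ended when any array but those of 1 h was left out (adjusted p up to 0.151). Of the 11 tested genes of electron transfer and heme supply, 0 passed in limma at 1 h (2 at an unadjusted p under 0.05). By their brightest probe sets 3 rose at 4 h, 1 at 8 h and 2 at 24 h, and 0 fell at any of these times. The shares that passed at 4, 8 and 24 h were 27.3%, 9.09% and 18.2%, beside 3.82%, 3.02% and 9.39% of all tested genes. For Cyb5r3, the reductase of cytochrome b5, the brightest was 1.61-fold lower at 24 h and did not pass (adjusted p = 0.0619). Of its other 4 probe sets, D00636cds_s_at and rc_AA963839_s_at did pass, 2.04-fold and 2.57-fold lower (0.0101 and 0.0116); it was singled out after its values were seen. Other genes of heme synthesis, Alad, Ppox and Urod, had log2 changes between -0.72 and 0.13 on their brightest probe sets. The lowest was that of Alad at 4 h (limma adjusted p = 0.0502), and Urod had -0.54 at 4 h. The other Ppox probe set, rc_AA859700_g_at, had 0.62 at 1 h and -0.56 at 24 h and passed at no time.

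Of the 13 tested regulators limma called 0 at 1 h and at 8 h, when 4 and 2 had an unadjusted p under 0.05. At 4 h 1 rose and 1 fell, and at 24 h 4 fell and 0 rose. The shares that passed at 4 and 24 h were 15.4% and 30.8%, beside 3.82% and 9.39% of all tested genes. For Hsp90ab1, a chaperone known to hold CAR in the cytosol, the brightest of 4 probe sets was 1.5-fold higher at 24 h and did not pass (adjusted p = 0.11). S45392_at and rc_AI007820_s_at did rise, 2.46-fold and 1.96-fold (limma adjusted p = 0.00632 and 0.0366); this gene was singled out after its values were seen. Cebpa, which encodes C/EBP alpha, had 213.5 and 193.8 at 24 h against 739.2 and 849.4 in sham and was 3.89-fold lower (log2 change -1.96, SE 0.16, limma adjusted p = 0.000772). Foxa2, a hepatocyte transcription factor, was 5.48-fold lower at 4 h and 3.47-fold lower at 24 h (SE 0.2, adjusted p = 0.000923 and 0.00295). Nr0b2, the nuclear receptor SHP, a repressor of other nuclear receptors, was 3.75-fold lower at 24 h (SE 0.24, adjusted p = 0.00461). Its other 2 probe sets were lower too at 24 h, 14.9-fold on D86580_at and at least 18.9-fold on D86745exon_s_at. At 1 h only D86745exon_s_at passed among the 3.

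Cebpb, which encodes C/EBP beta, had 3365.0 and 3649.7 at 4 h and 1074.3 and 1056.6 at 24 h, against 1585.0 and 1877.1 in sham. It rose 2.03-fold at 4 h (log2 change 1.02, SE 0.17, limma adjusted p = 0.0191) and was 1.62-fold lower at 24 h (adjusted p = 0.0472). Its other probe set, S77528cds_s_at, did not pass at 4 h (1.43-fold higher, adjusted p = 0.18) and was 1.65-fold lower at 24 h (0.0442). The 4 h call ended when a sham array or a 4 h array was left out (adjusted p up to 0.107) and the 24 h call without any 1 of the 10 arrays (up to 0.197). Rxra, the partner of CAR and PXR on DNA, had log2 changes of -1.1, -0.08, -0.98 and -0.74 at 1, 4, 8 and 24 h with an SE of 0.57 and passed at no time (adjusted p from 0.416 to 0.97).

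Of 20 tested genes that share induction by CAR or PXR, 8 passed at 1 or more times and 12 passed at no time. The shares that passed were 15%, 10%, 10% and 15% at 1, 4, 8 and 24 h. Those of all tested genes were 1.3%, 3.82%, 3.02% and 9.39%. At 1 h 0 rose and 3 fell, at 4 h 1 rose (Alas1) and 1 fell, at 8 h 0 rose and 2 fell, and at 24 h 1 rose and 2 fell. The gene that rose at 24 h was Cyp3a23-3a1, a P450 of the CYP3A subfamily and a classical PXR target, with 16539.3 and 15510.8 at 24 h against 9985.0 and 9844.8 in sham (1.61-fold, log2 change 0.69, SE 0.15, limma adjusted p = 0.0317). Of its other 3 probe sets, D13912_s_at rose 2.18-fold and L24207_i_at and L24207_r_at did not pass (1.6-fold and 2.08-fold). Cyp2a1, a testosterone hydroxylase gene, was 2.12-fold lower at 24 h (adjusted p = 0.0145). Sult2a1, a hydroxysteroid sulfotransferase gene, was 1.68-fold lower at 4 h (adjusted p = 0.0497) and 2.05-fold lower at 24 h (0.00955). The other Sult2a1 probe sets, D14987_f_at and rc_AA818122_f_at, did not pass.

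At 1 h, when Cyp2b2 was lowest, Ugt2b1, a glucuronosyltransferase gene induced by phenobarbital in rat, was 3.32-fold lower, with 897.6 and 867.9 against 3167.7 and 2710.4 in sham (log2 change -1.73, SE 0.16, limma adjusted p = 0.00298). Gsta3, a glutathione transferase gene, was 2.55-fold lower (adjusted p = 0.0108), and Abcc3, an export pump gene, was 4.56-fold lower (0.0436) with 1 of the 1 h arrays under the floor. Abcc3 was lower at 8 h too (3.49-fold, adjusted p = 0.0474), as was Gstm2, a glutathione transferase gene (1.98-fold, 0.0249). At 4, 8 and 24 h Ugt2b1 had log2 changes of 0.13 to 0.4 and Gsta3 of -0.39 to 0.22, none of which passed. The other Gsta3 probe sets, S72506_s_at and rc_AA945082_at, did not pass at 1 h (-0.96 and 0.32). Aldh1a1, Ephx1, Gstm1, Cyp3a2 and Cyp2c7 were among the 12 genes that passed at no time.

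Of these calls, that of Cyp3a23-3a1 did not pass once the sham, 1 h or 24 h arrays or the second 8 h array were left out singly (adjusted p up to 0.144). Leaving out the second sham array, or a 24 h array, ended the call of Cyp2a1 (up to 0.0763). That of Sult2a1 at 4 h ended with any 1 of the 10 arrays left out (up to 0.195), and at 24 h with the second sham or second 24 h array left out (up to 0.0569). Gsta3 ended without either sham or either 1 h array (up to 0.0919), Abcc3 without any array but the first 1 h array at 1 h (up to 0.164) and without any but the 1 h arrays at 8 h (up to 0.195), and Gstm2 without any but the 24 h arrays (up to 0.103). Ugt2b1 passed with each array left out but not in a model of the 1 h and sham arrays alone (adjusted p = 0.0594).

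**Figure D5:**
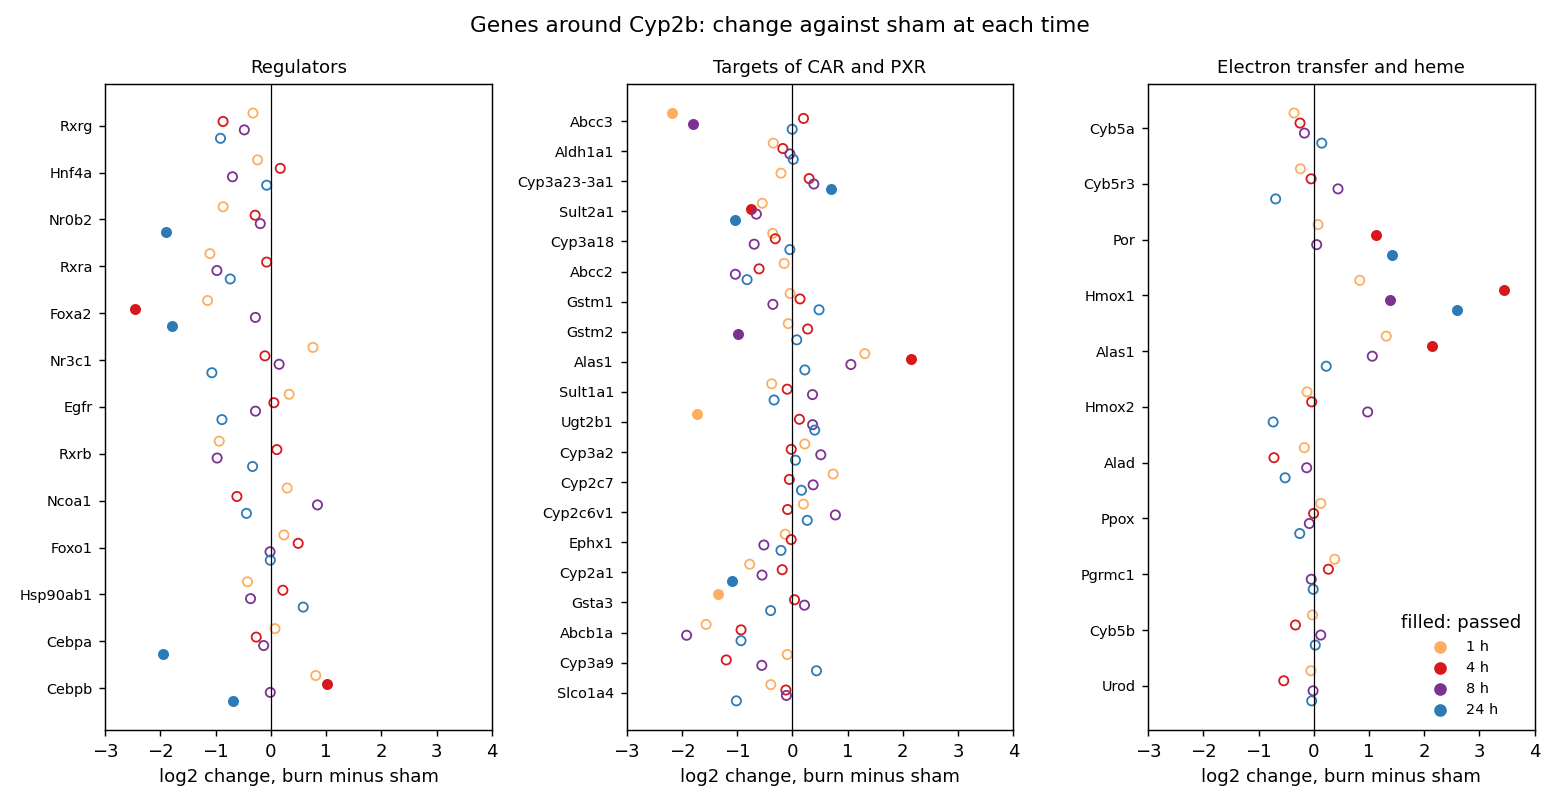
Change against sham (log2 scale, burn minus sham) of the 43 tested genes around Cyp2b at 1, 4, 8 and 24 h, in 3 lists with Alas1 on 2 of them; filled points had an adjusted p under 0.05. Por and Hmox1 are filled on the right at 4 h and 24 h, and Cebpa, Foxa2, Nr0b2 and Cebpb on the left at 24 h.

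The other P450 genes of families 1 to 4 gave a view of the wider superfamily, 33 genes on the array of which 28 were tested. Cyp3a2, Cyp3a9, Cyp3a18, Cyp3a23-3a1, Cyp2c6v1, Cyp2c7 and Cyp2a1 are also among the genes that share induction by CAR or PXR. A call on these counts in both sets. Of the 28 tested genes 2 rose and 0 fell at 1 h, 0 passed at 4 h, 1 fell at 8 h, and 3 rose and 2 fell at 24 h. The shares that passed were 7.14%, 0%, 3.57% and 17.9% at 1, 4, 8 and 24 h, beside 1.3%, 3.82%, 3.02% and 9.39% of all 3143 tested genes. At 4 h limma called 0 of the 28 (4 at an unadjusted p under 0.05), and 1 under an intensity trend with robust variance. The median changes of the 28 genes were 0.04, -0.11, -0.05 and 0.0 on the log2 scale at 1, 4, 8 and 24 h. A difference between Cyp2b2 and these genes was not tested.

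Cyp2c11 and Cyp2a2 rose at 1 h, when Cyp2b2 was lowest, and again at 24 h. Cyp2a2 rose 2.36-fold and 1.84-fold (limma adjusted p = 0.0125 and 0.015). Cyp2c11 had 8654.0 and 7995.2 at 1 h and 6733.2 and 6135.2 at 24 h, against 3608.8 and 3631.5 in sham (2.3-fold and 1.77-fold, limma adjusted p = 0.0133 and 0.0185). Of its other 2 probe sets, M18363cds_s_at rose at both times and X79081mRNA_f_at only at 1 h. The third gene that rose at 24 h was Cyp3a23-3a1, and Cyp2a1 was 1 of the 2 that fell. Cyp2j3, of a subfamily that oxidises arachidonic acid, was 2.03-fold lower at 24 h (0.0145), and Cyp2e1, the ethanol-inducible form, 1.69-fold lower at 8 h (0.0452). A further Cyp2e1 probe set, S48325_s_at, fell at 24 h too (1.63-fold lower, 0.0404). Calls on dimmer probe sets also came from Cyp1a2 and Cyp2c23, singled out after their values were seen. Cyp1a2, a P450 induced through the aryl hydrocarbon receptor, rose at 8 h on E01184cds_s_at and K03241cds_s_at (1.8-fold and 2.01-fold, limma adjusted p = 0.0268 and 0.025), and its brightest probe set was 1.74-fold higher (0.0961). Cyp2c23, which oxidises arachidonic acid, was lower on U04733_s_at at 8 h and 24 h (1.79-fold and 1.66-fold, adjusted p = 0.0474 and 0.0399), and its other 2 probe sets did not pass. The calls of Cyp2c11, Cyp2a2 and Cyp2j3 ended when 1 sham array or 1 array of the time compared was left out (adjusted p up to 0.105), and that of Cyp2e1 without any 1 of the 10 arrays (up to 0.163).

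The genes whose log2 values were most like each Cyp2b gene over the 10 arrays are given as a description. For K01721mRNA_s_at they were Cyp3a23-3a1 (Pearson r = 0.963, Spearman rho 0.915), the mitochondrial phosphate carrier gene Slc25a3 (0.955 and 0.952), the prohibitin gene Phb2 (0.952 and 0.976), the fibrinogen chain gene Fga (0.944 and 0.867) and Higd1a, a hypoxia-induced mitochondrial gene (0.938 and 0.83). Their log2 changes at 24 h, between 0.55 and 1.53, were all smaller than the 3.18 of Cyp2b2. For M20406_at of Cyp2b3 they were the flavin monooxygenase gene Fmo1 (r = 0.927, rho 0.903), Igfals, which encodes a carrier subunit of insulin-like growth factors (0.913 and 0.915), Tmem276 (0.904 and 0.903), the phospholipid synthesis gene Pcyt2 (0.901 and 0.939) and the cadherin gene Cdh2 (0.9 and 0.915). All 5 were lower at 24 h, by log2 changes of -0.78 to -1.65. For D17349cds_f_at of Cyp2b15 they were Ndufa5, Actg1, Dnph1, Hsp90ab1 and Lrrc59 (r = 0.92 to 0.967, rho 0.903 to 0.952). The 10 arrays are 5 pairs and these genes were picked as the highest in the tested set, so no p is attached.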

How the data were processed

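The authors deposited a linear intensity for each of 8799 probe sets on 10 arrays of rat liver RNA. From the values, each array had been scaled, with trimmed means after removal of 2% at each end between 499.57 and 499.98; the sources used here name no software. Array medians ran from 100.1 to 131.1, and the number of arrays limits the precision. The arrays were used as deposited, with a floor at 36.4 before log2. Of the probe sets, 7018 had 1 symbol in the probe table, 308 had several and 1473 were not listed.

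A single limma (3.58.1, R 4.3.3) model held the 5 groups, with 5 residual degrees of freedom. Each burn time was compared with sham, two-sided, with Benjamini-Hochberg adjustment over 5285 probe sets, after a test on simulated data. Promoter windows were aligned with Biopython 1.88. The brightest probe set stood for a gene.

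Named genes were all Cyp2b probe sets, every listed gene called at any time, Rxra, the 5 genes most like each tested Cyp2b gene (not Cyp2b12), and the called P450 genes with the 3 largest changes each way. The members and lists were chosen with earlier results of these data known. Alternatives were quantile normalization, floors at the 10th and 50th percentiles, no filter, limma with an intensity trend and robust variance, only probe sets with a plain _at name, only the groups compared, the replicate number as a block and each array left out; leaving out the 1 h arrays was chosen after seeing the data. Arrays of a group correlated at 0.9483 to 0.9552, with 8 to 24 identical values, so no array was a copy.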

Additional observations from a re-analysis of the deposited data

Results flagged for a closer look

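Cyp2b2 changed sides of sham between times. On K01721mRNA_s_at every 24 h array lay above both sham arrays and every 1 h array below both, and the log2 change at 24 h exceeded that at 1 h by 4.36. On J00728cds_f_at the same difference was 3.05, and on D17349cds_f_at of Cyp2b15 it was 1.43. These differences were not tested, since the genes were chosen on these values. The summed acinar signal was high at 1 h and low at 24 h, and its part in the differences was not tested.

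Cebpb rose at 4 h and fell at 24 h, and the log2 change at 24 h was 1.72 below that at 4 h (difference -1.72, SE 0.17). It was picked because its calls at these times had opposite signs, so no p is given for the difference. On its other probe set, S77528cds_s_at, the increase at 4 h did not pass (limma adjusted p = 0.18) and the decrease at 24 h did (0.0442). On the brightest probe set the 24 h call ended when any 1 of the 10 arrays was left out. The 4 h call there ended without a sham array or a 4 h array.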

How the results depend on the processing

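With equal groups the replicate block cannot move a change by construction, nor can leaving out the 1 h arrays move one at a later time, and no floor reaches K01721mRNA_s_at or M20406_at. After quantile normalization the change of M20406_at at 8 h was -0.48, and the other changes of these 2 probe sets and rc_AI169735_at moved by less than 1 SD between arrays. For rc_AI169735_at the floor at the 10th percentile gave -4.71, -4.71 and -4.41 at 1, 4 and 24 h, and the floor at the 50th gave -1.56 at each; a bound moves with its floor by construction. With 1 array left out, K01721mRNA_s_at lay between -1.32 and -1.03, 1.93 and 2.21, 1.55 and 1.83, and 3.04 and 3.33 at 1, 4, 8 and 24 h. M20406_at lay between -0.32 and 0.03 (reversed without sham array 1, 0.0305), -0.49 and -0.14, -0.53 and -0.18, and -0.69 and -0.34. On rc_AI169735_at it was -3.62 to -2.97 at 1, 4 and 24 h and -0.93 to -0.36 at 8 h.

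The 43 pathway genes gave 3, 6, 3 and 9 calls at 1, 4, 8 and 24 h, and with 1 array left out 1 to 2, 3 to 5, 0 to 2 and 4 to 9. The floor at the 50th percentile gave 7 at 1 h and 8 at 8 h, and the intensity trend 8, 12 and 15 at 1, 8 and 24 h. Plain _at probe sets gave 1, 1 and 5 at 1, 8 and 24 h, and only the groups compared gave 0, 3, 0 and 5 at the 4 times. The 28 other P450 genes gave 2, 0, 1 and 5 calls, and with 1 array left out 0 to 2, 0, 0 and 0 to 6. The intensity trend gave 5, 1, 9 and 9, plain _at probe sets 1, 0 and 1 and only the groups compared 0, 0 and 0 at 1, 8 and 24 h. At 8 h the floor at the 50th percentile gave 2, no filter 3, and the replicate block and the fit without the 1 h arrays 0. Over all probe sets, the counts of 76, 230, 185 and 543 were 1, 110, 1 and 197 with only the groups compared, and 26 to 76, 117 to 222, 27 to 112 and 224 to 495 with 1 array left out.

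The cause of the other shifts was not tested. Of the 27 calls of named genes and times, 8 held with each array left out and 19 did not. Whether the replicate numbers pair the arrays was not decided. Deviations of same-numbered arrays correlated weakly, at 0.0111 to 0.17, all positive and over 0.1 in 5 of 10 pairs of groups. With only the groups compared 19 of the 27 calls were lost, with quantile normalization 4, with the lower floor 3 and with no filter 3. Leaving out the 1 h arrays ended 4 of the 22 calls at later times, and plain _at probe sets ended 1 of the 11 calls that rest on one. With the replicate block the calls of Cebpb at 24 h (adjusted p = 0.0584), Abcc3 at 8 h (0.0534), Sult2a1 at 4 h (0.0515), Por at 4 h (0.0514) and Cyp2e1 at 8 h (0.0604) were lost.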
